A study of Homo sapiens with 8 samples.

Results

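This account concerns m6A peaks of U2OS cells that lay in coding sequence alone and ran across at least 1 exon junction. Such peaks were chosen from the deposited lists by 2 conditions: a feature label that holds coding and none of stop codon, 3′ UTR and 5′ UTR, and a genomic span more than 20 nt longer than the exonic sequence. In all, 1149 of 28949 peaks met both conditions, 613 of 15730 in control cells and 536 of 13219 in cells treated with siRNA against YTHDF2 (DF2). The rule used position and label only, and no measured value. No coding-only peak had a gap of 1 to 20 nt: the smallest total gap of a chosen peak was 79 nt in both lists and every other coding-only peak had 0. A few chosen peaks, 8 for control and 7 for DF2 siRNA, also carried a non-coding RNA label.

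U2OS is a human osteosarcoma line, and all 8 libraries came from its cytoplasmic RNA, broken into fragments and either kept as input or enriched with an antibody against m6A. The libraries formed 4 groups of 2: input and m6A immunoprecipitate of control cells, labelled control 1 and control 2, and the same of cells labelled DF2 siRNA #1 and DF2 siRNA #2. The labels do not say whether #1 and #2 are different siRNAs or replicates of 1 siRNA, nor whether libraries came from separate cultures or what the control cells received. The labels tie each deposited peak list to the immunoprecipitate pair of 1 condition, so there is 1 list per condition and no value per library. Differences between conditions therefore have no replicate check and are given without a test. Library depths are unknown. Intervals are 95% exact binomial (Clopper-Pearson) intervals of shares and cover counting error only. No chosen peak lay in YTHDF2 itself, and neither the extent of the knockdown nor markers of the cell line were analysed here.

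N6-methyladenosine (m6A) is the most common internal modification of mRNA. It is written by a complex around METTL3 and METTL14, with VIRMA and ZC3H13 among its other subunits, within a short motif centred on an adenosine before a cytosine. In mRNA it is dense near stop codons and in long internal exons. It is sparse close to exon junctions, where the exon junction complex, deposited during splicing, keeps the writer away. YTHDF2 binds m6A in the cytoplasm and recruits deadenylases to the bound mRNA. In these lists a junction appears as a gap between exonic stretches of 1 peak.

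The sequence of 3 peaks could be read in part from RefSeq tables of GRCh38.p14, which hold miRNA hairpins and windows of 300 bases at gene starts. They are shown because they are stretches of coding exons inside chosen peaks, with every GGAC, the commonest core of the m6A motif, in capitals. The SON line lies inside the peak with the highest score of the control members (chr21:33550662-33550728, plus strand, hairpin of MIR6501). The DNAAF2 line lies in the longest stretch of a DF2 siRNA peak (chr14:49633937-49634236, minus strand). The ITGB5 line ends at the last base before the first gap of a DF2 siRNA peak that had no overlapping control peak (chr3:124796388-124796625, minus strand, from the start window of LOC124909422). All are written 5′ to 3′ as DNA.
SON: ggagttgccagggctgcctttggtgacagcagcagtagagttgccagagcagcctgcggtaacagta
DNAAF2: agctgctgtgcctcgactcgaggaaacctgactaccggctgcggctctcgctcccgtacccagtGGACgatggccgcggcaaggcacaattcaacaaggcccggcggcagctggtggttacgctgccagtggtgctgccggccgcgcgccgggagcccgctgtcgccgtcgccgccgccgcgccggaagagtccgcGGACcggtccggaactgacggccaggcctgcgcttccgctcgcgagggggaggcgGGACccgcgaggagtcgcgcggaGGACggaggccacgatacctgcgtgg
ITGB5: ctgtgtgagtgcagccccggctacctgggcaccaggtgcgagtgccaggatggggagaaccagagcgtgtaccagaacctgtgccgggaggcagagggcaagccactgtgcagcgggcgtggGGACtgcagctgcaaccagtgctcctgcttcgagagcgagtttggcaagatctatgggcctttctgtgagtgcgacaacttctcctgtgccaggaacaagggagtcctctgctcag

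GGAC, searched as these letters on the sense strand only, occurred 0 times in the SON line, 4 times in the DNAAF2 line and 1 time in the ITGB5 line. Of the 1562 hairpins listed, 27.3% held it, among all 35116 start windows 66.3% held it, and among the same 238 bases of those windows 57.0%. A match to these letters is a description of the window and not a mapped m6A site. In the tables, 2 control and 1 DF2 siRNA members had at least 20 exonic bases in a hairpin, and 11 in each list had them in a start window.

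The SON peak shows how such a peak is built. SON encodes a splicing cofactor of nuclear speckles. Its control peak held 5600 nt in stretches of 92, 39 and 5469 nt, so nearly all of it lay in 1 large exon, with a deposited fold enrichment of 107 (score 7553). In DF2 siRNA the same exon carried peaks of 2600 nt (fold enrichment 78.2, score 2085) and 2200 nt (fold enrichment 35.0, score 738), neither of which reached a junction. The peak of DNAAF2, an assembly factor of axonemal dyneins, had stretches of 1544, 144 and 112 nt, a fold enrichment of 54.4 (score 316) in DF2 siRNA. Its control counterpart was longer and carried the stop codon and 3′ UTR labels as well (fold enrichment 63.7, score 954). Both numbers are the authors' own, 1 per peak. Neither the baseline of the enrichment nor what the score counts is given in the sources used here, and both serve to describe and rank peaks inside a list.

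Members of both lists were mostly 1 long exonic stretch with a short extension into a neighbouring exon. Their median exonic width was 800 nt in control and 600 nt in DF2 siRNA. All 613 control and 536 DF2 siRNA members had exonic widths that were multiples of 200 nt. The longest stretch had a median of 585 and 560 nt and held a median of 84.5% and 85.2% of the bases of its peak. Summed over members, 460915 of 560600 exonic bases in control and 353649 of 430200 in DF2 siRNA lay in the longest stretches, 82.2% in both. The longest stretch was 400 nt or more in 442 control members (72.1%, 68.4 to 75.6%) and 366 DF2 siRNA members (68.3%, 64.2 to 72.2%). It was under 200 nt in 47 and 40 members.

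**Figure D1:**
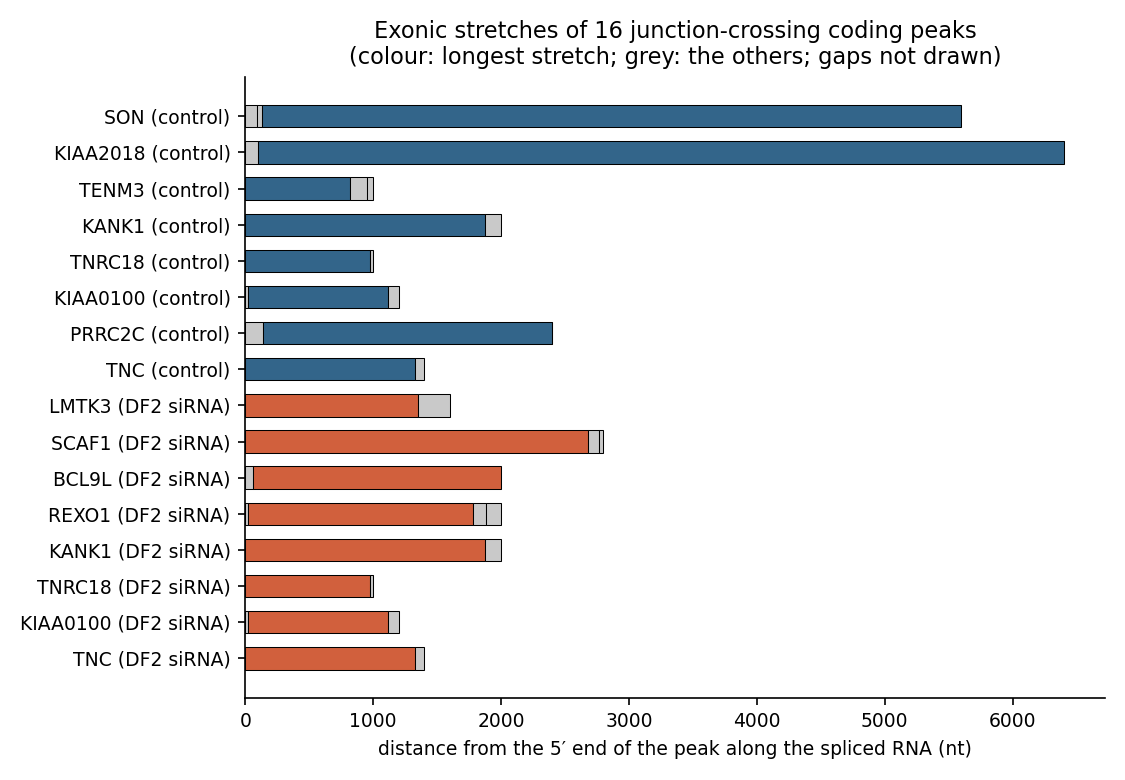
Exonic stretches of chosen peaks drawn end to end along the spliced RNA from the 5′ end of the peak (x axis, nt), 8 peaks from each list, with the longest stretch in colour and the others in grey. SON in control is 5469 nt of 5600 nt in 1 stretch, and KANK1 shows the same stretches of 1874 and 126 nt in both lists.

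One junction was the usual case, in 355 control members (57.9%) and 354 DF2 siRNA members (66.0%). In these the shorter side had a median of 67 and 65.5 nt and the longer side 576 and 552.5 nt. The shorter side was under 50 nt in 36.3% (31.3 to 41.6%) of them in control and 38.4% (33.3 to 43.7%) in DF2 siRNA. Such sides are shorter than the fragment length of about 100 nt that the submitters state, and the part of fragment length in them was not tested. Peak widths came in steps of 200 nt, so a last step that straddles a junction can leave a short side. The part of these steps in the short sides was not tested either. Spliced peaks with a stop codon label were also uneven at equal width, and which class was the more uneven changed with width. Of control peaks with 1 junction, 71.1% of members and 82.6% of stop codon peaks had 75% or more of their bases on 1 side at 400 nt, 87.3% and 87.5% at 600 nt, and 95.3% and 89.4% at 800 nt. In DF2 siRNA these shares were 78.7% and 80.0% at 400 nt, 87.7% and 84.6% at 600 nt, and 96.8% and 88.3% at 800 nt. The uneven split is not shown to be particular to coding-only peaks.

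**Figure D2:**
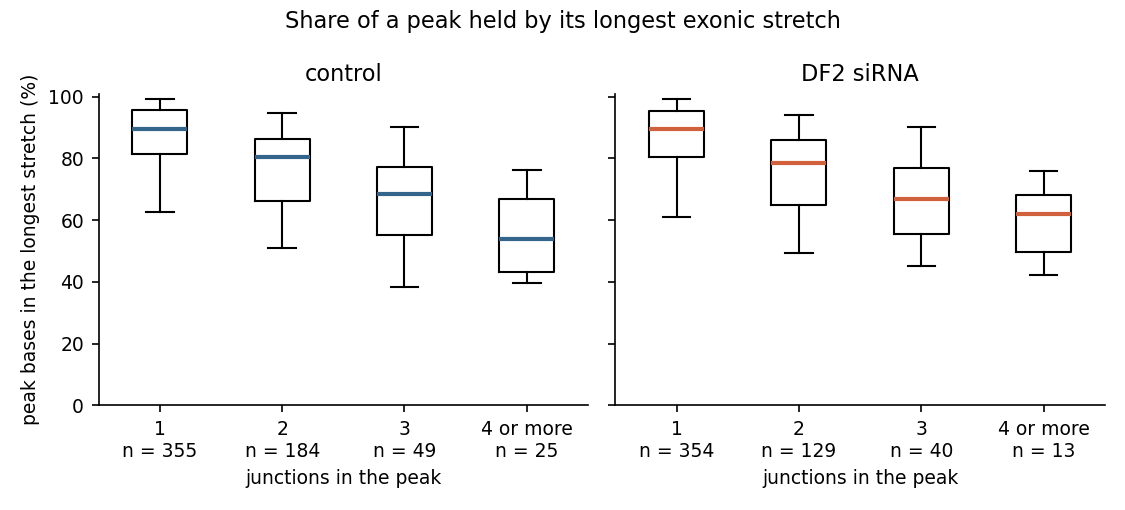
Share of a peak's exonic bases in its longest stretch (y axis, %) by number of junctions (x axis), for each list; boxes give quartiles and median, whiskers the 5th and 95th percentiles. The median falls from 89.5% at 1 junction to 53.8% at 4 or more in control and from 89.5% to 61.9% in DF2 siRNA.

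The side of the long stretch differed between these peaks and spliced stop codon peaks, a contrast that the class labels set in part. Stop codon peaks carry a stop codon label, while members were barred from stop codon and 3′ UTR labels. In some genes, such as FAT1 and KMT2D, a stop codon label also stood on a peak upstream of the one with the 3′ UTR label. With 1 junction, the longer stretch was upstream in 181 of 355 control members (51.0%, 45.7 to 56.3%) and 201 of 354 DF2 siRNA members (56.8%, 51.4 to 62.0%). Among stop codon peaks it was upstream in 218 of 1925 (11.3%, 9.94 to 12.8%) and 193 of 1536 (12.6%, 10.9 to 14.3%). In the rest the downstream stretch was as long or longer. The intervals of the 2 classes do not overlap in either list, although they cover counting error only and neighbouring peaks of a gene are not independent. Because the labels define the classes, this contrast does not show a separate trait of members. With 2 or more junctions the longest stretch was an inner one in 136 of 258 control members (52.7%, 46.4 to 58.9%) and 88 of 182 DF2 siRNA members (48.4%, 40.9 to 55.9%). For stop codon peaks these shares were 24.1% (21.3 to 27.1%) and 21.5% (18.1 to 25.2%). The class labels bear on this contrast as well.

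Inner stretches, which lie between gaps of a peak, are read here as exons filled from junction to junction, without exon models. Long inner stretches were more frequent in members than in stop codon peaks. The part of the class labels in this difference was not tested. Of the inner stretches, 121 of 368 in control (32.9%, 28.1 to 37.9%) and 79 of 252 in DF2 siRNA (31.3%, 25.7 to 37.5%) were 400 nt or more, against 18.5% (16.3 to 20.8%) and 17.9% (15.1 to 20.9%) in stop codon peaks. Their medians were 160.5 and 147.5 nt. Counting each interval once, the members held 450 inner stretches, 168 of them in both lists, 199 in control alone and 83 in DF2 siRNA alone. Those of 400 nt or more numbered 141 and those of 1000 nt or more numbered 23, of which 7 stood in both lists.

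These 7 whole exons came from CSPG4, SGK223 (PRAG1 in RefSeq), REXO1, BIRC6, PPARGC1B, KIAA0100 (BLTP2) and WDR33. CSPG4, a chondroitin sulphate proteoglycan of the cell surface, had the longest, 3537 nt at chr15:75687276-75690812, and was named, like PPARGC1B and WDR33, after its values were seen. Its peak had a fold enrichment of 64.5 (score 1380) in control and 106 (score 713) in DF2 siRNA. The exon of REXO1, an RNA exonuclease homologue, had 1754 nt between outer stretches of 23 nt in control, with fold enrichments of 109 and 132 in control and DF2 siRNA. SGK223, a pseudokinase, had an exon of 1832 nt (fold enrichment 105 and 143). The exon of WDR33, a factor of mRNA 3′ end processing, was 1089 nt (fold enrichment 81.0 and 115). PPARGC1B, a transcriptional coactivator, had one of 1123 nt (fold enrichment 47.2 and 65.9). BIRC6, a giant ubiquitin ligase that inhibits apoptosis, had one of 1395 nt with the lower fold enrichment in DF2 siRNA (83.0 and 60.7), and so did KIAA0100 with 1093 nt (64.8 and 55.0). In 5 of these 7 the fold enrichment was higher in the DF2 siRNA list, and in all 7 the score was lower there.

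Some exons filled in 1 list were marked in part in the other, and 4 genes serve as examples. The kinetochore protein CENPF carried a single control peak of 6600 nt with whole exons of 3404 and 2844 nt and 6 junctions (fold enrichment 50.3, score 2714). In DF2 siRNA the same region held members of 2000 nt (fold enrichment 34.4) and 1000 nt (fold enrichment 18.0), among the 4 DF2 siRNA peaks that the control peak overlapped. The 2259 nt exon of PRRC2C was filled in control (fold enrichment 68.4, score 3813), and a DF2 siRNA member covered 398 nt of it next to the same downstream junction (fold enrichment 14.5, score 348). LMTK2, a membrane-anchored kinase, had 1 control peak of 3000 nt over an exon of 2959 nt and 2 DF2 siRNA peaks of 800 and 2000 nt over the same exon. In the opposite direction, 1 DF2 siRNA peak of 2000 nt filled exons of 492 and 1260 nt in the histone methyltransferase SETD1B. Control had separate peaks of 600 and 1200 nt that overlapped it. The control peak of 600 nt filled the 492 nt exon, and neither control peak was wide enough to fill the 1260 nt exon. PRRC2C and LMTK2 were named after their values were seen. The fold enrichments given for CENPF and PRRC2C belong to peaks of unlike width in the lists, and the part of width in them was not tested.

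Across the gaps the RNA is continuous while the genome is not. Single gaps had a median of 2535 nt in control (interquartile range 1087 to 6118 nt) and 2076 nt in DF2 siRNA (880 to 5386 nt), and 1 of 981 and 1 of 788 were under 60 nt. That 1 gap, of 20 nt, lay in CREBBP, a histone acetyltransferase, in both lists, between stretches of 75 and 40 nt. The widest total gaps with a gene symbol were 194504 nt in TRABD2B in control and 139359 nt in TAF3, a subunit of the transcription factor TFIID, in DF2 siRNA. TAF3 had the same gap in control, where stretches of 15 and 1385 nt flanked it. The genes ENSG00000283154 and ENSG00000283245 had gaps of 501759 and 490559 nt in control and share sequence, so which of them the reads came from is uncertain. The narrowest gaps were 79 nt in TOE1, a deadenylase of small nuclear RNAs, and 81 nt in BCL9L, each with identical stretches in both lists.

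CDYL2, a chromodomain protein, had the most junctions, 6 in both lists. Its stretches of 11, 592, 3, 3, 3, 67 and 121 nt were identical in both, so 592 of 800 nt lay in 1 exon and 3 inner stretches were 3 nt each. Whether the exons of 3 nt are real microexons of this mRNA was not tested. ARHGAP39, a GTPase-activating protein, crossed 5 junctions in both lists with stretches of 562, 98, 93, 74 and 12 nt that matched and a first stretch of 1161 nt in control and 1361 nt in DF2 siRNA. The Wnt coreceptor LRP6 crossed 5 junctions in control (1000 nt, fold enrichment 40.3) and 4 in DF2 siRNA (800 nt, fold enrichment 30.4). FAM208A (TASOR), a subunit of the silencing complex HUSH, crossed 5 in control over 1800 nt and 2 in DF2 siRNA over 600 nt. FANCE, a subunit of the Fanconi anaemia core complex, went the other way, from 1 junction in control to 4 in DF2 siRNA. Fold enrichment was higher at more junctions, with medians from 23.2 at 1 junction to 50.3 at 4 or more in control and from 19.9 to 62.5 in DF2 siRNA, and peaks with more junctions were also wider.

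Members made up 50.5% (47.7 to 53.4%) of the 1213 coding-only peaks of control and 42.1% (39.4 to 44.9%) of the 1272 of DF2 siRNA, while their share of all peaks was 3.90% and 4.05%. The control share was the higher at each of the 6 widths compared, from 40.2% against 32% at 200 nt to 54.5% against 49.3% above 1000 nt. At 600 nt it was 51.1% (45.0 to 57.1%) against 40.7% (35.1 to 46.4%), and the intervals of the lists overlapped at each of the 6 widths. The lists differ in length and in unknown depth, and the part of depth in this difference was not tested.

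**Figure D3:**
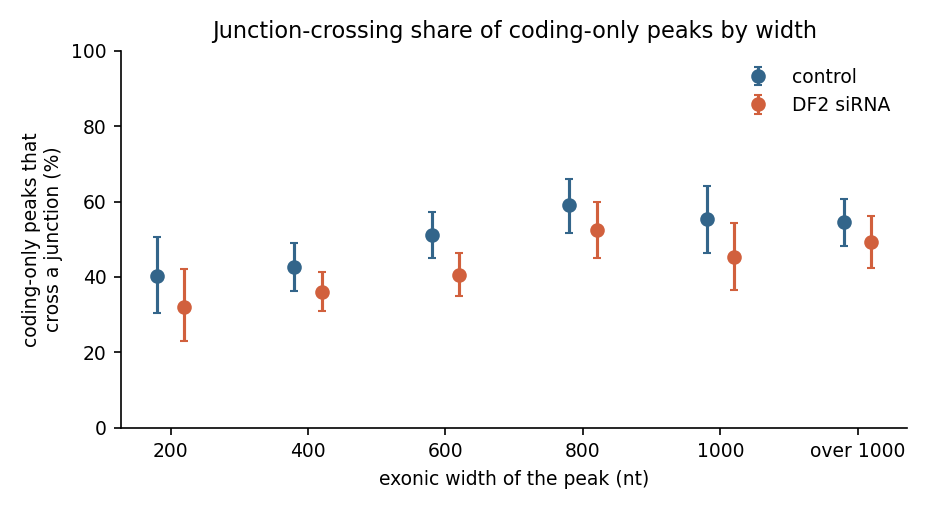
Share of coding-only peaks that cross a junction (y axis, %) by exonic width of the peak (x axis, nt) for both lists; bars are 95% exact binomial intervals. The control share is above the DF2 siRNA share at all 6 widths, and the intervals overlap at each of them.

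Members had higher fold enrichments than coding-only peaks that stayed within 1 exon, also at equal width. The median fold enrichment was 28.4 (interquartile range 15.0 to 46.5) for control members and 18.6 for 1-exon peaks, and 23.3 (12.9 to 39.7) and 15.1 in DF2 siRNA. Median scores were 318 and 113.5 in control and 133 and 63 in DF2 siRNA. At 600 nt the median fold enrichments were 22.6 and 20.4 in control and 22.9 and 16.2 in DF2 siRNA, and at 1000 nt 41.2 and 29.9 in control and 32.3 and 23.7 in DF2 siRNA. The median of members was the higher at all 6 widths in both lists, with overlapping interquartile ranges. With all widths pooled, spliced stop codon peaks stood above both, at 35.0 for control and 29.4 for DF2 siRNA. At equal width the order of members and stop codon peaks was mixed. At 600 nt the stop codon median was 22.6 in control, as for members, and 22.4 in DF2 siRNA, below the 22.9 of members. At 1000 nt it was the higher, 46.3 in control and 37.6 in DF2 siRNA. Placed within its own list, members had a median percentile of fold enrichment of 61.1 (control) and 61.2 (DF2 siRNA). The median fold enrichment of members rose with width in each list. Where single peaks of unlike width are set side by side in this account, the part of width in their fold enrichments was not tested.

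Most members had a counterpart in the other list. Of the control members, 494 of 613 (80.6%, 77.2 to 83.6%) shared at least 1 exonic base on the same strand with a DF2 siRNA peak, against 71.9% of all control peaks. Of the DF2 siRNA members, 471 of 536 (87.9%, 84.8 to 90.5%) were overlapped by a control peak, against 87.5% of all DF2 siRNA peaks, which is close to that background. Overlap followed width, from 43.6% at 200 nt to 97.9% above 1000 nt in control members and from 43.8% to 99.0% in DF2 siRNA members. It also followed score, from 16.1% in the lowest to 99.4% in the highest quintile of the control list. One-exon coding peaks were overlapped in 70.8% of cases in control and 89.8% in DF2 siRNA. Within quintiles of the control score, however, members were overlapped less than 1-exon peaks in 4 of 5, with 16.1% against 29.8%, 79.6% against 87.1%, 89.6% against 93.2% and 99.4% against 100%, and more in the second lowest, with 63.2% against 53.1%. The higher share of members over all control scores was thus not seen in 4 of the 5 quintiles. With the control list reduced to the length of the DF2 siRNA list by fold enrichment, 86.3% of control members and 85.8% of DF2 siRNA members were overlapped, so the lower share in control did not remain.

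**Figure D4:**
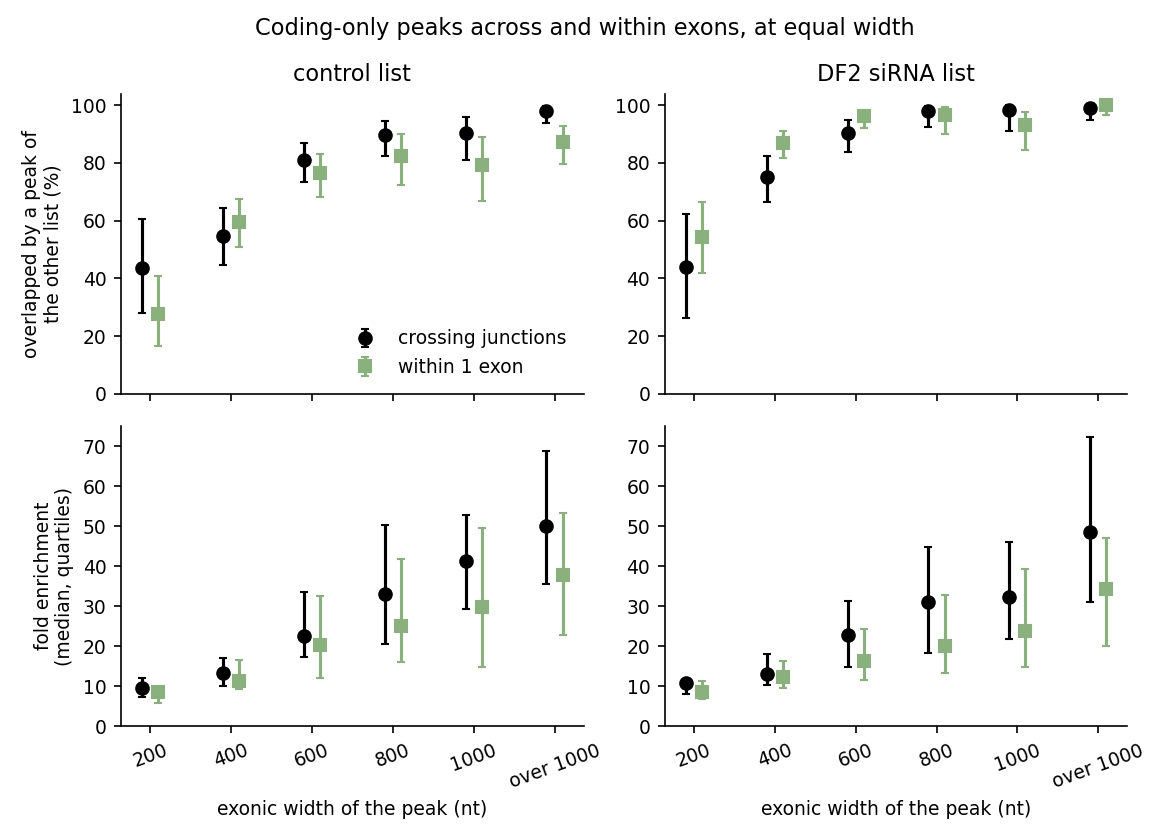
Coding-only peaks that cross junctions (circles) and that stay within 1 exon (squares) by exonic width (x axis, nt). Upper panels give the share overlapped by a peak of the other list (%, 95% exact binomial intervals), lower panels the median fold enrichment with quartiles; the median of junction-crossing peaks is the higher at all 6 widths in both lists.

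The counterparts differed in label between the directions. A control member met a member in 363 cases (59.2%), a 1-exon coding peak in 84 (13.7%), a stop codon peak in 25, a 5′ UTR peak in 18 and no peak in 119 (19.4%). A DF2 siRNA member met a member in 363 cases (67.7%), a 1-exon coding peak in 22 (4.10%), a stop codon peak in 54 (10.1%), a 5′ UTR peak in 24 and no peak in 65 (12.1%). Control members without a counterpart were narrow and weak, with a median width of 400 nt, fold enrichment of 11.1 and score of 38, and so were those of DF2 siRNA with 400 nt, 10.7 and 45. Members crossed 975 introns in control and 783 in DF2 siRNA. The 525 crossed in both were 53.8% and 67.0% of these. Counting any peak of the other list, 585 and 618 of them were crossed. No such share was computed over all spliced peaks, so these figures are not shown to be particular to members.

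Boundaries were often the same to the base. Of 373 overlapping pairs of members, 201 had identical stretches, which is 32.8% of control and 37.5% of DF2 siRNA members. All member widths were multiples of 200 nt, and the part of such steps in equal boundaries was not tested. Identical stretches were not particular to members: 4442 other peaks had them too, in lists of 15730 (control) and 13219 (DF2 siRNA) peaks. The control peak was the wider in 118 pairs and the DF2 siRNA peak in 48, and control crossed more junctions in 65 and DF2 siRNA in 26. Over the 201 identical pairs the score ratio of DF2 siRNA to control had a median of 0.427 (interquartile range 0.304 to 0.548), close to the 0.425 of 4442 identical peaks that were not members. The fold enrichment ratio had a median of 0.974 (0.718 to 1.25), against 0.860 for those other peaks. The Spearman rank correlation between the lists over these 201 peaks was 0.782 for fold enrichment and 0.883 for score. It is a description only, because the peaks within a list come from the same pooled libraries.

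**Figure D5:**
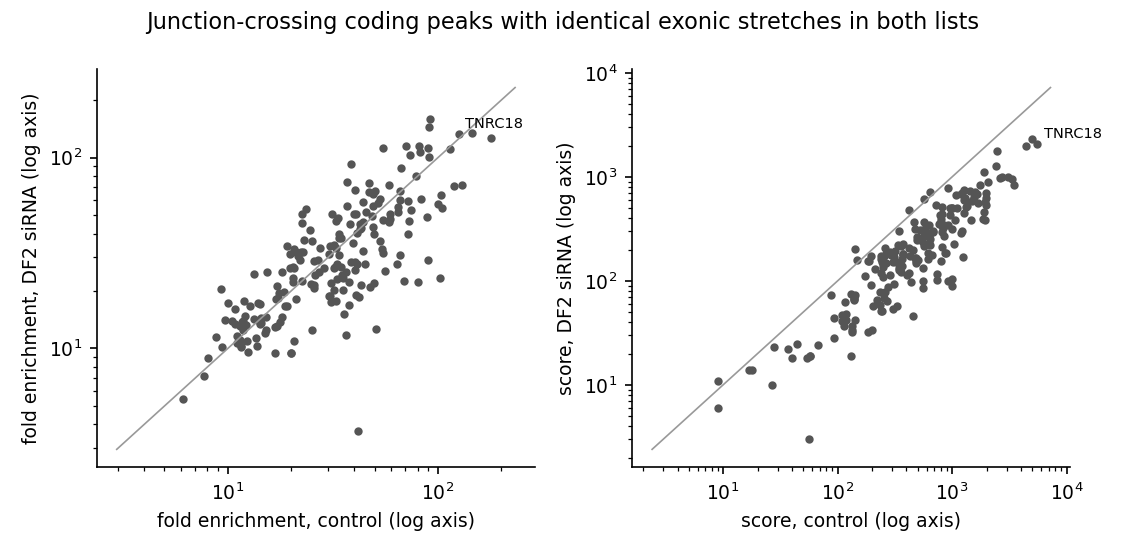
Fold enrichment (left) and score (right) in control (x axis, log) and DF2 siRNA (y axis, log) of the 201 junction-crossing coding peaks with identical stretches in both lists; the line marks equal values. Scores lie mostly below the line, with a median ratio of 0.427, while fold enrichments scatter about it.

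The identical pairs with the highest control scores came from genes of varied roles. TNRC18, a large chromatin protein, led with 972 and 28 nt, a fold enrichment of 126 for control and 132 for DF2 siRNA, and scores of 5566 and 2082. PPP1R9B (spinophilin), a targeting subunit of protein phosphatase 1, followed with 1288 and 112 nt and fold enrichments of 81.7 and 107. PTGFRN, a membrane partner of tetraspanins, was the even one: its stretches were 360, 426 and 414 nt, and its fold enrichment was 72.8 for control and 46.7 for DF2 siRNA. KLHL13, a substrate adaptor of a cullin ubiquitin ligase, had 90 and 710 nt and fold enrichments of 100.4 and 57.2. BCL9L, a cofactor of β-catenin, had 64 and 1936 nt and fold enrichments of 92.0 and 159. Fold enrichments moved both ways at these fixed intervals, while each score was lower in the DF2 siRNA list.

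TENM3, a teneurin of cell adhesion, had the highest control value, 236 at 1000 nt in stretches of 823, 131 and 46 nt. The overlapping DF2 siRNA peak of 600 nt stayed within 1 exon, at 60.8. LMTK3, a membrane-anchored kinase, had the highest DF2 siRNA value, 352 over 1354 and 246 nt, and 207 over 1554 and 246 nt in control. TNC (tenascin C), a matrix glycoprotein, had 1330 and 70 nt in both lists, with fold enrichments of 179 and 127. KANK1, a scaffold of the cell cortex, had 144 and 134 at identical stretches. The atypical cadherin FAT4 had a control peak of 5000 nt at 135, with a first stretch of 4788 nt. In DF2 siRNA that stretch held 1-exon peaks of 2000 nt at 69.8 and 600 nt at 6.58, and a member of 1400 nt began there, at 17.7. These peaks differ in width, and the part of width in their fold enrichments was not tested.

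SCAF1, a partner of the RNA polymerase II tail, had a fold enrichment of 78.0 over 2600 nt in control and 170 over 2800 nt in DF2 siRNA, with scores of 2078 and 2076. KIAA2018 (USF3), a transcription factor gene, was a control member of 97 and 6303 nt (fold enrichment 129), and in DF2 siRNA 3 peaks of 1400, 1400 and 1200 nt lay within that exon, at 72.4, 14.1 and 39.4. SNAPC4, the large subunit of the complex that starts small nuclear RNA transcription, was a member in DF2 siRNA alone (1800 nt, 137) and a 1-exon peak of 1600 nt in control (214). PLIN4, a lipid droplet coat protein, was likewise a member in DF2 siRNA (800 nt, 151) and a 1-exon peak of 600 nt in control (139). ZRANB1, a deubiquitinase, had identical stretches and fold enrichments of 130.2 and 71.4. GPATCH2, a G-patch protein, was a member in control (121) and met a DF2 siRNA peak labelled 5′ UTR and coding (47.3). KIAA2018, SNAPC4, PLIN4 and GPATCH2 thus had peaks over the same exon in both lists, with other boundaries or labels.

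A smaller set of members had no counterpart at all. In control those with the highest scores were UBE2L3, TLN1, FAT1, NHLRC2 and ZC3H11A. UBE2L3, a ubiquitin-conjugating enzyme, had 118 and 82 nt with a score of 1381 at a fold enrichment of 14.9. Talin 1 (TLN1), the link of integrins to actin, had 112, 153 and 135 nt, a score of 543 and a fold enrichment of 11.5. In DF2 siRNA they were ECEL1, ITGB5, PPM1G, COL5A1 and FAM83H. ECEL1, a membrane peptidase homologue, had 597 and 3 nt, a score of 753 and a fold enrichment of 16.4. ITGB5, the integrin β5 chain shown above, had 364, 32 and 4 nt, a score of 468 and a fold enrichment of 12.4. COL5A1, a fibrillar collagen chain, had 45, 54, 108 and 193 nt, a score of 317 and a fold enrichment of 12.2. Apart from that of NHLRC2, at 37.2, these peaks had fold enrichments between 11.0 and 16.4, below the member median of their list.

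Members fell in 556 genes in control and 497 in DF2 siRNA, 343 of them in both. Of the 213 genes with a member in control alone, 159 had another kind of peak in DF2 siRNA, and of the 154 with a member in DF2 siRNA alone, 136 had another kind of peak in control. Most genes had 1 member, and 6 genes in control and 3 in DF2 siRNA had 3. PCNT (pericentrin), a scaffold of the centrosome, had 3 members with identical stretches in both lists, at fold enrichments of 65.8, 47.2 and 90.7 in control and 30.7, 73.1 and 100.6 in DF2 siRNA. A stop codon peak in the same gene accompanied 49.1% (44.9 to 53.3%) of member genes in control and 46.7% (42.2 to 51.2%) in DF2 siRNA, against 58.3% (53.7 to 62.8%) and 49.2% (45.1 to 53.4%) of genes with a 1-exon coding peak.

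The number of members per gene differed most in SYNE2, by 3. AIM1, AKAP9, ARHGEF17 and BRCA2 differed by 2, as did other genes in either direction, and are named because ties were taken by gene name. SYNE2 (nesprin 2), which ties the nucleus to the cytoskeleton, had 3 members in control and 0 in DF2 siRNA, where 2 peaks of 400 and 600 nt stayed inside exons. BRCA2, a recombination protein, had 2 and 0. Its control peak of 2200 nt had stretches of 942 and 1258 nt and a fold enrichment of 80.0, and the DF2 siRNA peaks over these exons were 400 nt each at 12.8 and 8.78. The part of the unlike widths in these fold enrichments was not tested. AKAP9, a scaffold of kinases at the Golgi and centrosome, had 2 adjoining members in control, at 32.8 and 33.4, with no overlapping DF2 siRNA peak. AIM1 (CRYBG1 in RefSeq) had 2 and 0, and ARHGEF17, a guanine nucleotide exchange factor, had 3 and 1. The remaining ARHGEF17 member had stretches of 2542 and 58 nt in both lists, at 89.1 for control and 112 for DF2 siRNA. KMT2D, a histone H3 methyltransferase, had 1 for control and 3 for DF2 siRNA.

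Among the gene lists, chromatin regulators, large surface receptors and cytoskeletal genes had the highest shares with a member. Over all 10493 genes with a symbol and a peak, 6.71% had a member in either list. These 704 genes were 339 in both lists, 211 in control alone and 154 in DF2 siRNA alone. Among 44 chromatin regulators with a peak, 20 had one, 16 of them in both lists. They included CREBBP (fold enrichment 49.0 for control and 43.5 for DF2 siRNA at identical stretches), KMT2B (82.1 and 85.2) and SETD1B. EP300, the paralogue of CREBBP, was a member in DF2 siRNA (79.2) and met a 5′ UTR peak in control. Of 28 large surface receptors, 13 had a member, 11 in both lists and 2 in DF2 siRNA alone. CELSR2, a flamingo cadherin, had 66.6 and 60.1 over 3200 and 3400 nt, and IGF1R had 42.7 and 42.0 at identical stretches. Of 23 cytoskeletal linkers and motors, 10 had a member, with 4 in both, among them the spectrin SPTBN1.

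Of 35 cell cycle and centrosome genes, 10 had a member: 5 in both lists, 5 in control alone and 0 in DF2 siRNA alone. Control alone was also the larger group over all genes, 211 against 154, and splits of such small counts were not tested. Cohesin loader NIPBL had 2200 nt at 95.7 in control and 800 nt at 36.4 in DF2 siRNA. Of 26 DNA repair and replication genes, 7 had one, 5 in both and 2 in control alone. The helicase BLM had 688 and 112 nt at 100.3 in control and 488 and 112 nt at 22.6 in DF2 siRNA, while RECQL5 had identical stretches at 49.8 and 39.8. Of 28 ubiquitin ligases and deubiquitinases 8 had one, among them HUWE1 with 53.2 and 60.3 at identical stretches. Of 33 kinase and small GTPase regulators 8 had one, and of 18 matrix genes 5, among them the laminin chain LAMB1 with 14.4 and 14.5.

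The lists of RNA processing, vesicle traffic, translation and transporters had the lowest shares among the gene lists. RNA processing (20%) and vesicle traffic (11.1%) were still above the 6.71% over all genes. Translation (5%) and transporters (4.17%) were below it, with 1 gene each. Of the 25 listed genes of RNA processing with a peak, 5 had a member. Of these 5, VIRMA and ZC3H13, both subunits of the m6A writer, had a member in both lists. Genes of RNA processing outside this gene list, among them WDR33 and TOE1, also had members in both peak lists. VIRMA (KIAA1429 in the lists) had 64.8 over 1800 nt in control and 30.1 over 1400 nt in DF2 siRNA. ZC3H13 had identical stretches of 182 and 418 nt with 64.2 and 52.1, and scores of 1199 and 289. DICER1, which cuts miRNA precursors, was a control member with no counterpart (14.7). Of 27 vesicle traffic genes 3 had a member, none in both lists: VPS13B and VPS13D in control and VPS13C in DF2 siRNA. Of 20 listed translation genes only EIF2AK3, a kinase of the initiation factor eIF2, had one. Of 24 listed ABC and ion transporters only the copper pump ATP7A had one (12.5 and 10.6). Outside these gene lists, the translation genes EIF3L and EEFSEC and the ion exchanger gene SLC24A1 had members in both peak lists. The shares thus depend on which genes were listed. The lists hold many genes with long coding sequence and were written with earlier results of these data known. Their shares are descriptions, and the part of gene length in them was not tested.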

How the data were processed

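Peak lists of m6A immunoprecipitates of control and DF2 siRNA cells were used, 1 pooled list per condition. Per the submitters' processing notes, the authors used HISAT2 and the build hg38. No HISAT2 version, peak caller, annotation or strand setting is given in the sources used here. Per the file headers, each peak carries a fold enrichment (a ratio) that the authors computed. The deposited score is a whole number without a stated meaning. The headers name the deposited −log10 column after a p-value (control) or an FDR (DF2 siRNA), so a limit on it differs between lists.

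Touching blocks were joined into exonic stretches. Block sizes on the minus strand fit the block starts only in reverse order and were reversed: as deposited they fit in 3446 of 7635 control and 3348 of 6422 DF2 siRNA peaks, reversed in all. Coordinates are counted from 1. Overlap needs 1 shared exonic base on the same strand. The named genes follow a rule: in each list the 10 members of highest fold enrichment, the 5 with most junctions, the 5 genes with most members, the 5 of highest score without overlap, and the 3 widest and 3 narrowest gaps; over both lists the 10 identical pairs of highest control score and the 5 genes with the largest change of members; and up to 3 genes from each of 12 gene lists. SON and DNAAF2, the latter with ITGB5 for its sequence, were named after their values were seen. Members, lists and rule were chosen with earlier results of these data known. RefSeq names of GRCh38.p14 matched 638 of 704 member genes by symbol and 57 by an older name. Motifs over whole peaks, exon models and single libraries were not analysed here. Some genes that the rule selects are left out of the text. The scripts were tested on simulated data. Python 3.11.15, pandas 2.3.3, numpy 2.4.6, scipy 1.17.1 and matplotlib 3.10.9 were used. Alternatives were stricter limits, equal list lengths, other overlap rules, narrow peaks and minimum lengths of the outer stretches.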

Additional observations from a re-analysis of the deposited data

How the results depend on the processing

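No paired analysis was possible because each peak list pools the libraries of its condition, and for the same reason no replicate could be left out. Of 150 alternative values, 100 stayed within 1.5 times of a count or within the interval of a share or median and 50 moved further. The control list had the higher junction-crossing share of coding-only peaks in each alternative run, but other contrasts between the lists turned around in 2 alternatives, named below. Limits on value or rank were applied to both lists, and limits on width or stretch length to coding-only peaks alone. Requiring first and last stretches of 50 nt or more left 329 control members (27.12% of coding-only peaks, 84.8% overlapped, 310 genes), 283 DF2 siRNA members (22.25%, 269 genes), 169 genes in both and 218 shared introns. Peaks of at most 400 nt gave 145 control members (40.96%, overlap 51.72%, median fold enrichment 11.96, median score 95, 144 genes), 156 DF2 siRNA members (34.9%, 68.59%, 12.02, 59, 155 genes), 56 genes in both and 60 shared introns, so that control had the lower number of members and genes and the lower median fold enrichment there, against the higher of each over all widths. A −log10 value of at least 3.3 gave 54.64% members, 73.33% overlap, median fold enrichment 36.45 and score 426 in control, and 47.67%, 92.14%, 31.95 and 196 in DF2 siRNA. Within the upper 50% of each list by fold enrichment there were 381 control members (58.8%, 74.54%, 41.35, 522, 354 genes), 324 DF2 siRNA members (51.1%, fold enrichment 34.4, score 253, 302 genes) and 215 genes in both. Equal list lengths gave an overlap of 86.27% in control and 85.82% in DF2 siRNA, so control was no longer the lower, and moved control fold enrichment to 31.72 and score to 371. An overlap of 50% of both peaks gave 71.13% in control and 78.36% in DF2 siRNA. Block sizes in the deposited order, an alternative added after the data were seen, gave a median of 2 junctions in both lists. Where fewer peaks enter by construction, counts fall with them, and the cause of the other moves was not tested. Unknown depth limits every comparison between the lists.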

Other observations

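Among the 201 pairs with identical stretches, single peaks moved far more in fold enrichment than the median pair, and the following were chosen after their values were seen. SALL4, a zinc finger transcription factor, went from a fold enrichment of 89.6 (control) to 29.2 (DF2 siRNA), and SPRED1, an inhibitor of Ras signalling, had 80.6 and 22.3, both at 600 nt. In the opposite direction the histone methyltransferase gene SETD1A had 38.5 for control and 92.5 for DF2 siRNA at 1000 nt, with scores of 642 and 715, and CTDP1, a phosphatase of the RNA polymerase II tail, had 55.0 and 112, with scores of 419 and 479. These are values of single pooled peaks without a replicate check.

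The gaps of the control members of ENSG00000283245 and ENSG00000283154, of 490559 and 501759 nt, enclose the hairpin of MIR3919. Members sharing exonic bases with another member of the same list numbered 12 for control and 8 for DF2 siRNA.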
